A study of Mus musculus with 6 samples.

Results

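The genes described here are 10 that encode apolipoproteins or proteins of lipoprotein assembly, chosen by symbol as lipoprotein genes of the visceral yolk sac endoderm: Apoa1, Apoa2, Apoa4, Apob, Apoc1, Apoc2, Apoe, Apom, Mttp and Soat2. All 10 were among the 21877 gene symbols of the table, 9 reached the expression minimum of 1 RPKM in at least 3 libraries, and Apoc2 was listed at 0 throughout. RNA was sequenced from mouse embryos at embryonic day 7.5, with 3 wild-type libraries (WT 1 to 3) and 3 libraries of embryos carrying the S254D knock-in of Rnf111 (KI 1 to 3). Rnf111, also called Arkadia, is a ubiquitin ligase of the Nodal and TGF-beta pathway, and the comparison asks how its mutant form affects transcript levels in the embryo. The labels name no treatment. Strain, zygosity and sex, the litters, what was dissected away and how many embryos went into a library are not given in the sources used here. No label says that replicates came from separate litters or embryos, so p-values reflect the spread of these 6 libraries alone, some of which may be technical.

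Lipoproteins carry cholesterol esters, triglycerides and fat-soluble vitamins in a protein-coated droplet. Apob forms the scaffold of the large triglyceride-rich particles and is loaded with lipid in the endoplasmic reticulum by the transfer protein Mttp, while Soat2 makes the cholesterol esters of the core. The visceral endoderm of the mouse egg cylinder and yolk sac takes up maternal nutrients and secretes lipoproteins towards the embryo before the liver and the placenta take over. Apoa1, Apoa2, Apoa4, Apoc1, Apoc2, Apoe and Apom are exchangeable or surface proteins of these particles, and Apoe is also made by many other cells.

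Levels are in RPKM, that is reads divided by exon length in kilobases and by library depth. This puts genes and libraries on a common scale but leaves differences in RNA make-up between libraries uncorrected. Whole reads recovered from the values gave depths of about 9763000 (KI 2, the shallowest) to 13559000 (WT 3, the deepest). Both of these libraries stood apart: Pearson's r across genes was 0.988 to 0.996 for every pair drawn from WT 1, WT 2, KI 1 and KI 3, while KI 2 reached 0.963 to 0.973 with those 4 and WT 3 no more than 0.952 with any library. The median genotype difference of the members is given with and without WT 3 and KI 2. Ranges and counts over the libraries other than KI 2 include WT 3 unless stated. WT 1 and WT 2 were the closest pair, with a chi-square between their reads that averaged 3.87 a gene, against 10.4 or more for every other pair. Counting noise alone gives about 1, but library preparation can add to it. The value therefore cannot show whether WT 1 and WT 2 came from separate embryos, and they were treated as separate replicates without such evidence. On the log2(RPKM + 1) scale the median tested gene lay 0.31 below the other 5 libraries in WT 3 and 0.08 below in KI 2. The summed RPKM of the Y-linked Ddx3y, Eif2s3y, Kdm5d and Uty was 41.0, 42.5 and 62.0 in WT libraries 1 to 3 and 7.29, 50.9 and 0.0 in KI libraries 1 to 3. Heart muscle transcripts such as Myl7, the atrial myosin light chain, were already at 156 to 201 RPKM outside KI 2.

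The bases before the transcription start are shown for the 4 members above 10 RPKM, which carry most of the lipoprotein signal. The sequences run 5′ to 3′ from RefSeq on GRCm38.p6, 250 bases each up to the base before the first listed start, and capitals mark motif matches.
Apoa1 (chr9:46228380-46228629, plus strand): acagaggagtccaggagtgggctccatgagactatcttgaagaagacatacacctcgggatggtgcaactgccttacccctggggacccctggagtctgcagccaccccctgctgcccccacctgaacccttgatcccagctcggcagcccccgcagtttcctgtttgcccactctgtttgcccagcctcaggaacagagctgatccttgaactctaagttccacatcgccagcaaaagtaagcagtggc
Apoa2 (chr1:171224804-171225053, plus strand): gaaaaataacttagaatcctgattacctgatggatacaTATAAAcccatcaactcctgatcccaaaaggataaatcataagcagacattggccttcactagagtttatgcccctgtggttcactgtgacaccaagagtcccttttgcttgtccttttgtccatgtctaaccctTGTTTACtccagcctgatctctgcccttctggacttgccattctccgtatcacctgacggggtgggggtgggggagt
Apom (chr17:35131802-35132051, minus strand): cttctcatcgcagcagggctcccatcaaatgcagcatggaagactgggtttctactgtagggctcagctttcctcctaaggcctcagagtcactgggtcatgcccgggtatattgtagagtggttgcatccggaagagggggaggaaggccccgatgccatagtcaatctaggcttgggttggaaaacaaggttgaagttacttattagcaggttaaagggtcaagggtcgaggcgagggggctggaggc
Apoe (chr7:19699189-19699438, minus strand): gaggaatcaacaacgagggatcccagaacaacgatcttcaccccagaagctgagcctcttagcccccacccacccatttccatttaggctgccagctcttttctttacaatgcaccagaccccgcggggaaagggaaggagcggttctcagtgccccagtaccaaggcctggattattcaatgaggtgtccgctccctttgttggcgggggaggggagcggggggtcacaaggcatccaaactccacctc
RefSeq promoters were matched for 8 of the 10 members. Both strands were searched for the HNF4 repeat CAAAGTCCA, the nuclear receptor half-site AGGTCA, the HNF1 half-site GTTAAT, the forkhead site TGTTTAC, the Gata factor site AGATAA and the core promoter box TATAAA, and no match overlapped another in a member. Apoa2 held TGTTTAC, a motif of 3.1% of the 27025 promoters of the same length, and TATAAA, a motif of 13.0%. TATAAA also lay before Apob, and Apoc2 held AGGTCA (13.8% of promoters) and GTTAAT (6.5%). The TATAAA matches began at -212 from the start in Apoa2 and at -60 in Apob. Apoa2 has 2 listed starts and Apoe 3, and only the first of each was searched. The letters CAAAGTCCA (0.4% of promoters) and AGATAA (10.3%) were not in any of the 8 windows, and no searched motif was in the windows of Apoa1, Apom or Apoe.

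The summed lipoprotein transcript level was far lower in KI 2 than in the other 5 libraries, and the size of the gap differed between members. The summed RPKM of the 10 genes was 324, 329 and 800 in WT libraries 1 to 3 and 414, 22.6 and 518 in KI libraries 1 to 3. WT 3 was the highest in the sum and in 5 of the 9 tested members, where 19.4% of all tested genes were highest in WT 3. All 9 tested members had their lowest value in KI 2, a pattern of 20.6% of all 10104 tested genes. For 6 of the 9 (Apoa1, Apoa2, Apoa4, Apob, Apoe and Apom) KI 2 was more than 4-fold below the lowest of the other 5 libraries, where 0.96% of all tested genes were. In bulk RNA, fewer cells of a type and less RNA per cell cannot be told apart.

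**Figure D1:**
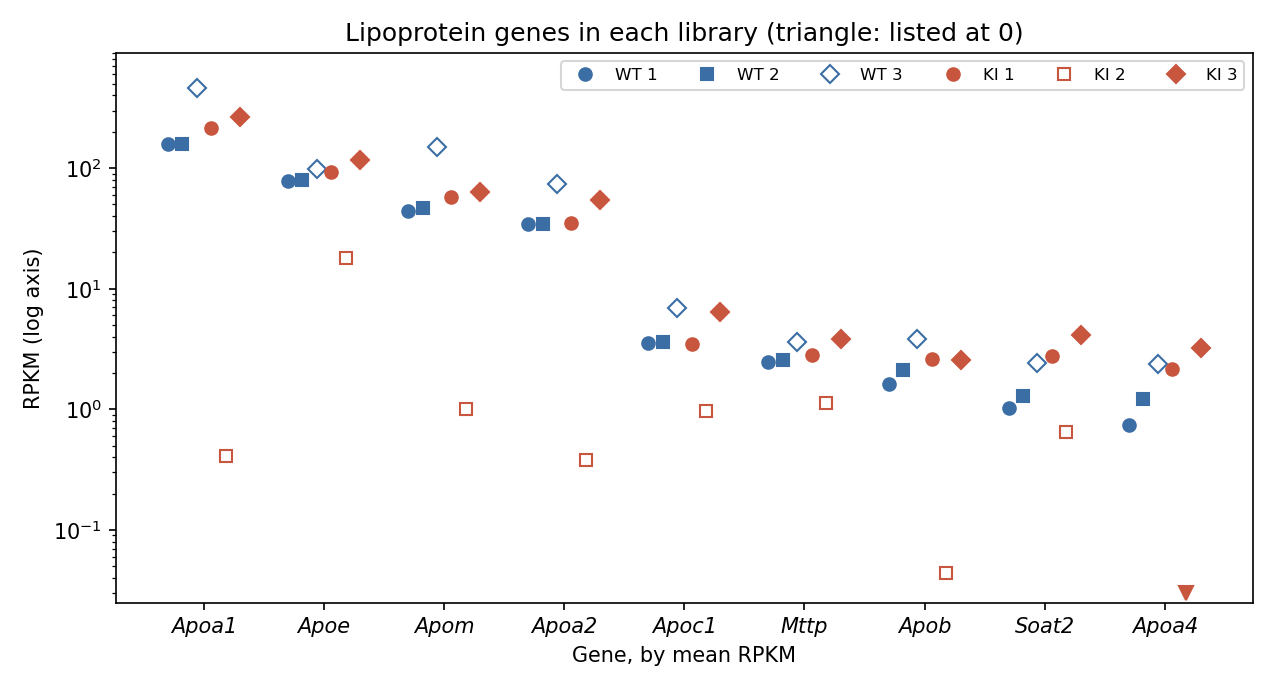
RPKM (log axis) of the 9 members above 0 in each of the 6 libraries, ordered by mean level. Points are single libraries, WT in blue and KI in red, with open symbols for WT 3 and KI 2. The KI 2 point is the lowest for every gene shown, and the triangle marks Apoa4, listed at 0 there.

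Among the surface proteins of high-density particles, Apoa1 led the group. Apoa1, the main structural protein of high-density lipoprotein, was at 159, 159 and 458 RPKM in WT libraries 1 to 3 and at 216, 0.414 and 264 in KI libraries 1 to 3. Its KI 2 value rests on 5 reads, against 2484 to 7676 in the other libraries. The lowest of the other 5 was 383 times the KI 2 level, with a 95% Poisson interval of 164 to 1180 that covers the counting error of KI 2 only. This was the widest gap among the members above 0 in KI 2.

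Apoa2, the second protein of high-density particles, was at 34.5, 34.1 and 74.0 RPKM in WT libraries 1 to 3 and at 35.0, 0.381 and 54.9 in KI libraries 1 to 3. Only 2 reads stand behind the KI 2 value, so the ratio of the lowest other library to it, 89.3, has an interval of 24.7 to 738. WT 1, WT 2 and KI 1 lay within 1 RPKM of each other, and WT 3 and KI 3 were higher. Apom, a lipocalin that carries sphingosine-1-phosphate on high-density particles, was at 43.8, 46.6 and 151 RPKM in WT libraries 1 to 3. In KI libraries 1 to 3 Apom was at 57.5, 1.01 and 63.3 RPKM. Its WT 3 level was 3.35 times the mean of WT 1 and WT 2, the highest such ratio among the members, and in KI 2 its 10 reads put it 43.3-fold (23.6 to 90.3) below the lowest other library.

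Apoa4, which in rodents is made mainly by the intestine and associates with newly made triglyceride-rich particles, was low. It was at 0.744, 1.22 and 2.36 RPKM in WT libraries 1 to 3 and at 2.15, 0.0 and 3.25 in KI libraries 1 to 3. The 0 reads in KI 2 allow a level of up to 0.169 RPKM (3 reads; counting error only), which is under each of the other values. KI 1 and KI 3 were above WT 1 and WT 2, and WT 3 lay between KI 1 and KI 3. Apoa4 shares 34.9% of its exon bases with the opposite-strand gene model Gm47528 and 34.8% with the opposite-strand model Gm10680. No source used here says whether counting was stranded.

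Apoa1 and Apoa4 lie in a gene cluster on chromosome 9 with Apoc3, an inhibitor of lipoprotein lipase, and Apoa5. Apoc3 was at 0.962, 0.622 and 7.27 RPKM in WT libraries 1 to 3 and at 2.06, 0.0 and 1.88 in KI libraries 1 to 3. It was therefore highest in WT 3 and missing from KI 2, as Apoa1 nearly was. Apoa5 did not exceed 0.378 RPKM in any library. Within the cluster the levels of Apoa1 and Apoa4 were far apart, with an Apoa1 to Apoa4 ratio between 81.1 in KI 3 and 213 in WT 1.

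Apoe and Apoc1, which lie with Apoc4 and Apoc2 in a cluster on chromosome 7, had smaller gaps between KI 2 and the other libraries than Apoa1. Apoe, the ligand that clears remnant particles through LDL receptor family members, was at 77.6, 79.1 and 98.2 RPKM in WT libraries 1 to 3 and at 92.0, 18 and 116 in KI libraries 1 to 3. KI 2 was 4.31-fold (3.89 to 4.78) below the lowest other library, from 376 reads. Apoc1, a small inhibitor of lipoprotein uptake, was at 3.53, 3.60 and 6.94 RPKM in WT libraries 1 to 3. In KI libraries 1 to 3 Apoc1 was at 3.50, 0.964 and 6.41 RPKM, so that KI 2 was 3.64-fold (1.76 to 9.04) below the lowest other library. The ratio of Apoe to Apoc1 in KI 2 was 18.7, inside the range of 14.2 to 26.2 of the other libraries, whereas the ratio of Apoa1 to Apoe was 0.023 in KI 2 and 2.00 to 4.66 elsewhere.

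Apoc2, the activator of lipoprotein lipase, was listed at 0 in all 6 libraries, and Apoc4 did not exceed 0.116 RPKM. In GENCODE M21, 79.5% of the exon bases of Apoc2 also belong to the same-strand gene model Gm44805, which was listed at 0 in all 6 libraries too. Of 217 protein-coding genes of the table that share at least 75% of their exon bases with another same-strand gene, 172 (79.3%) were at 0 in all libraries, against 3831 of 20189 (19.0%) of those that share none. No expression level can be given for Apoc2, and a listed 0 does not show that it was off.

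For the assembly of triglyceride-rich particles, the scaffold and its loading factor differed in KI 2. Apob, the non-exchangeable scaffold with 13934 bases of exon, was at 1.63, 2.12 and 3.82 RPKM in WT libraries 1 to 3 and at 2.62, 0.0441 and 2.57 in KI libraries 1 to 3. The KI 2 value comes from 6 reads and is 36.9-fold (16.9 to 101) below the lowest other library. Mttp, the microsomal triglyceride transfer protein, was at 2.46, 2.55 and 3.59 RPKM in WT libraries 1 to 3 and at 2.83, 1.12 and 3.82 in KI libraries 1 to 3. Its KI 2 value, from 68 reads, was 2.19-fold (1.73 to 2.82) below the lowest other library. The ratio of Apob to Mttp was 0.0393 in KI 2 and 0.663 to 1.06 in the other 5. Mttp shares 7.4% of its exon bases with the opposite-strand gene Trmt10a, a tRNA methyltransferase at 5.37 to 6.79 RPKM with 6.63 in KI 2, and the part of shared reads in the Mttp values was not tested.

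Soat2, the sterol O-acyltransferase of intestine and liver, was at 1.02, 1.28 and 2.40 RPKM in WT libraries 1 to 3 and at 2.79, 0.648 and 4.12 in KI libraries 1 to 3. Soat2 had the smallest gap between KI 2 and the next library, 1.57-fold, with a counting interval of 0.936 to 2.87 that includes no gap. KI 1 and KI 3 were its highest libraries, above all 3 WT values. Its relative Soat1, which is expressed in most tissues, was higher throughout, at 44.3, 46.2 and 48.8 RPKM in WT libraries 1 to 3 and at 56.0, 31.5 and 62.1 in KI libraries 1 to 3.

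The make-up of the lipoprotein transcripts was alike in 4 libraries. Apoa1 supplied 48.2% to 52.1% of the summed RPKM of the members in WT 1, WT 2, KI 1 and KI 3, and Apoe supplied 22.2% to 24.0%. In WT 3 Apoa1 reached 57.2% and Apom 18.9%, while Apoe, at only 1.25 times the mean of WT 1 and WT 2 there, made up 12.3%. In KI 2 Apoe alone made up 79.7% and Apoa1 1.83%.

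**Figure D2:**
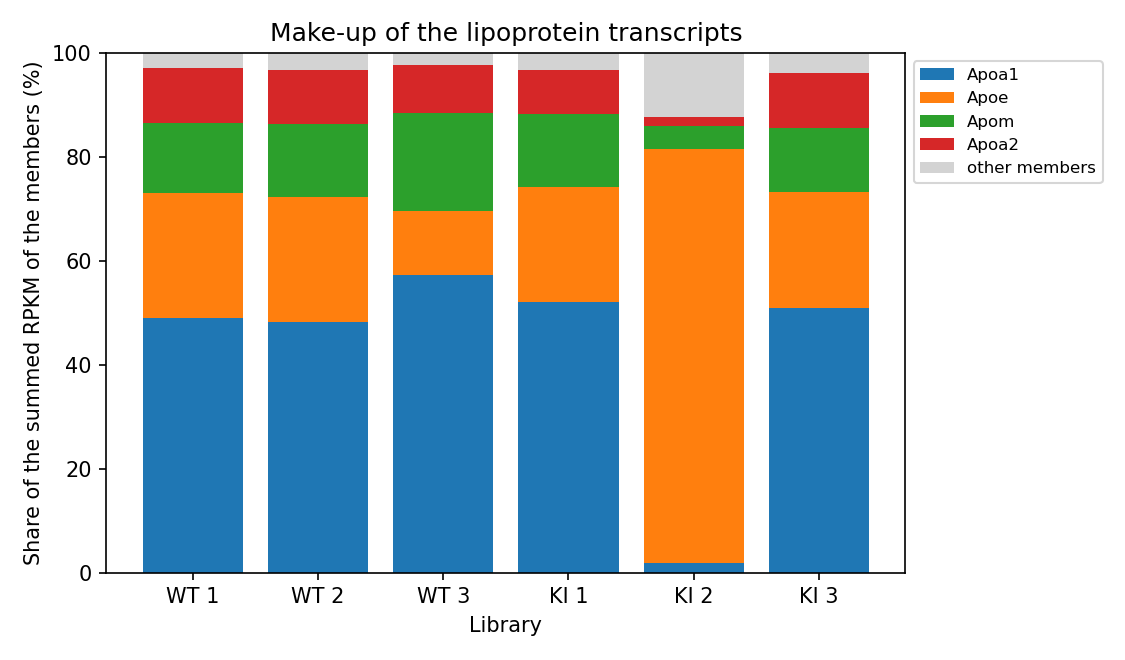
Share of the summed RPKM of the 10 members (%, vertical axis) held by Apoa1, Apoe, Apom, Apoa2 and the other members in each library. WT 1, WT 2, KI 1 and KI 3 have nearly the same bars, and Apoe takes 79.7% in KI 2.

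No member differed between KI and WT past the threshold. In limma's fit to log2(RPKM + 1), with p adjusted by Benjamini-Hochberg over 10104 genes, 0 of 9 tested members had an adjusted p under 0.05 (lowest adjusted p 0.999), and 0.0% of all tested genes did. At an unadjusted p under 0.05 there were 0 members and 121 genes (1.2%), and limma-voom on recovered reads also called 0 genes, with 132 at an unadjusted p under 0.05. The 3 KI and 3 WT values did not separate for any member, where 2.74% of tested genes had all KI below all WT and 3.8% the reverse. The median log2 difference of the members, KI minus WT, was -0.52, beside 0.05 for all tested genes, and 7 of 9 were negative, beside 41.2% of all tested genes.

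The intervals of these differences were wide for the abundant members. Apoa1 averaged 258 ± 173 RPKM over the WT libraries and 160 ± 140 over the KI libraries (SD, n = 3 per genotype), and its log2 difference was -2.39 (SE 1.87, 95% interval -6.78 to 2.0; limma adjusted p = 0.999). Apom had a log2 difference of -1.81 (95% interval -4.85 to 1.23) and Apoa2 one of -1.69 (-4.7 to 1.32). The differences of Apoe (-0.53, -2.0 to 0.94), Apob (-0.52, -1.7 to 0.66) and Apoc1 (-0.45, -1.58 to 0.69) were smaller. Mttp (-0.18, -0.92 to 0.57), Apoa4 (0.02, -1.24 to 1.27) and Soat2 (0.34, -0.65 to 1.34) lay closest to 0 or above it. All 9 intervals included 0.

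The sign of the median, and of the differences of Apoa1, Apob, Apoc1, Apoe and Mttp, rested on KI 2, while Apoa2 (-0.02) and Apom (-0.16) were close to 0 and still negative without it. Without KI 2 the median over the members was 0.08, the same as the 0.08 of all tested genes, and Apoa1 had a log2 difference of 0.08 (95% interval -1.18 to 1.34). Without WT 3 the median was -0.27. Without both WT 3 and KI 2 all 9 differences were positive, with a median of 0.39 beside -0.02 for all tested genes, and 0 members were called where 41 genes (0.406%) were. With library weights 0 members were called as well, where 93 genes (0.92%) were. In the fit to WT 1, WT 2, KI 1 and KI 3 the members nearest the threshold were Apoa1 (log2 difference 0.59, SE 0.09, limma adjusted p = 0.0617), Soat2 (1.04, SE 0.17, limma adjusted p = 0.0688) and Apom (0.41, SE 0.08, limma adjusted p = 0.104). The WT group of that fit is WT 1 and WT 2 alone, the closest pair of libraries, which may not be separate embryos.

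**Figure D3:**
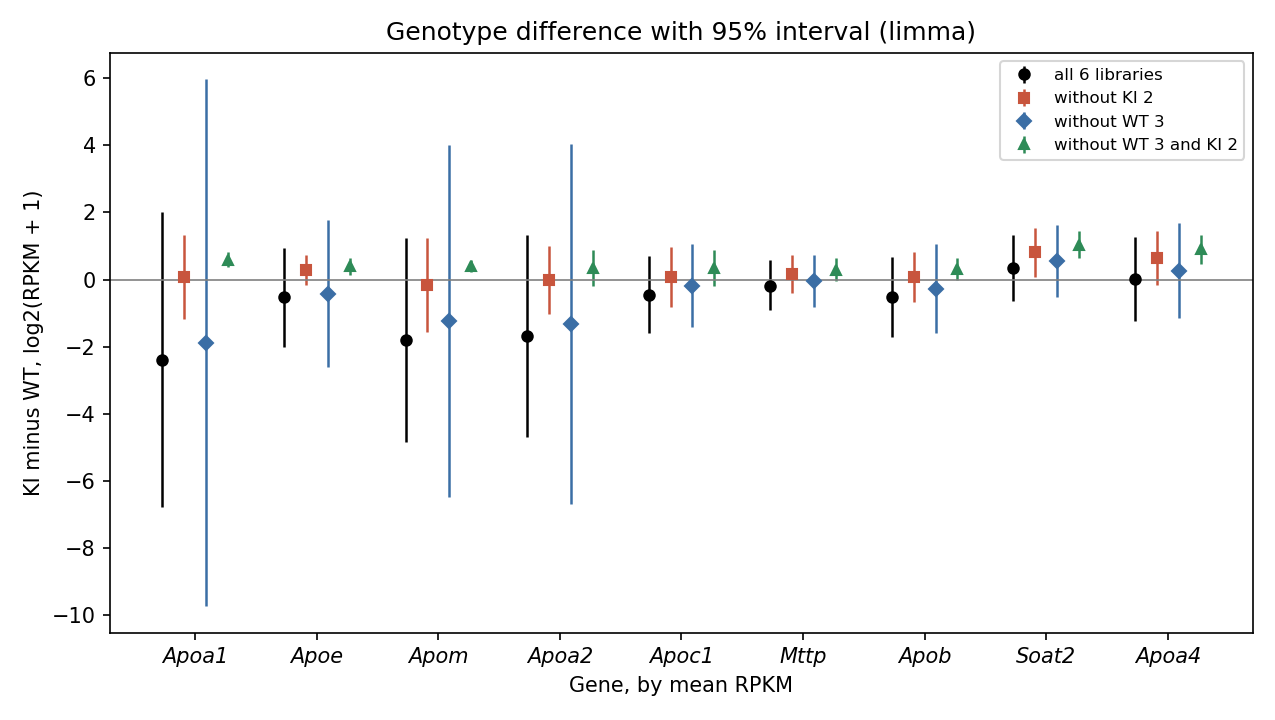
KI minus WT difference in log2(RPKM + 1) for the 9 tested members with 95% limma intervals, in all 6 libraries, without KI 2, without WT 3 and without both. Apoa1 moves from -2.39 in all 6 libraries to 0.59 without both, and no setting shown brings a member past the threshold.

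Apart from KI 2 and WT 3, the knock-in libraries had the higher values. KI 1 and KI 3 were both above WT 1 and WT 2 for 8 of the 9 tested members, the exception being Apoc1, beside 18.6% of all tested genes. The same held for 17 of 21 tested markers of the visceral and yolk sac endoderm other than the members. For Apoa2 it rests on 35.0 RPKM in KI 1 against 34.5 in WT 1, inside the 95% counting interval of KI 1 (30.4 to 39.9). The mean of KI 1 and KI 3 over the mean of WT 1 and WT 2 ran from 1.31 for Apoa2 to 3.0 for Soat2, with 2.76 for Apoa4, 1.51 for Apoa1 and 1.33 for both Apoe and Mttp. These 4 libraries also differ in Y-linked transcripts (7.29 and 0.0 in KI 1 and KI 3 against 41.0 and 42.5 in WT 1 and WT 2), so genotype and sex cannot be told apart in them.

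Markers of the visceral and yolk sac endoderm other than the members followed the same order of libraries. Their summed RPKM over 25 genes was 518, 527 and 1180 in WT libraries 1 to 3 and 615, 160 and 691 in KI libraries 1 to 3. KI 2 was lowest for 20 of 21 tested markers and more than 4-fold below the next library for 14 of them. Rbp4, the retinol carrier, was at 4.96 RPKM in KI 2 and 175 to 469 elsewhere, and Ttr, the thyroid hormone carrier, at 2.76 against 52.5 to 248. The exception was Gpc3, a cell-surface proteoglycan, at 115 in KI 2, 114 in WT 3 and 130 to 148 in the remaining libraries, so that only WT 3 was lower. On the log2(RPKM + 1) scale the median gap between KI 2 and the other 5 was -1.77 for the members and -1.68 for these markers, and WT 3 lay 0.63 and 0.55 above the others.

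Markers of other cell types set KI 2 apart to different degrees. Cardiac mesoderm markers were also lowest there, in 10 of 10 tested genes, with a summed RPKM of 137 against 469 to 583. Trophoblast markers had a sum of 12.3 against 26.7 to 30.4 and 2 of 5 tested lowest in KI 2, with the defining giant cell and spongiotrophoblast genes Tpbpa, Prl3d1 and Prl2c2 at 0 in every library. Definitive endoderm and notochord markers had a sum of 73.4 against 106 to 225, with 6 of 12 tested lowest in KI 2. Among them Spink1, which is also a visceral endoderm marker, was at 8.57 RPKM in KI 2 and 20.2 to 142 elsewhere. Trh, the thyrotropin-releasing hormone precursor, went the other way, at 20.6 and 0.959 to 6.72, as did the signalling ligand Shh, at 4.32 and 0.548 to 2.38. Noto, also on this list, was low in KI 2, at 0.511 and 3.14 to 3.9. Parietal endoderm markers summed to 63.5 in KI 2, above WT 3 (47.4) but below the remaining libraries (66.0 to 83.9), and 3 of 14 tested were lowest in KI 2. Primitive erythroid markers (2800 against 2020 to 2960) stayed within the range of the other libraries, and neural plate markers were higher (71.8 against 41.7 to 56.5). Decidua markers summed to 81.0 against 104 to 161, but 1 of 5 tested was lowest in KI 2, namely Cryab, a small heat shock protein, at 21.4 RPKM against at least 61.0. Among these markers the granzymes Gzmd, Gzme, Gzmf and Gzmg were at 0 throughout. The granzymes and Prl2c2 have near-identical copies among which reads may be split or dropped. Macrophage markers, which bear on Apoe and Apoc1, were under 1 RPKM in every library for 11 of 12 genes, with C1qa, C1qc and Ptprc at 0. The other one, the lysosomal protein Cd68, was at 4.42, 4.83 and 2.99 RPKM in WT libraries 1 to 3 and at 5.88, 5.62 and 9.32 in KI libraries 1 to 3, all KI above all WT (limma unadjusted p = 0.039, adjusted p = 0.999). Trh, Shh and Noto were picked after their values were seen. The part of these other cell types in the lipoprotein values was not tested.

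**Figure D4:**
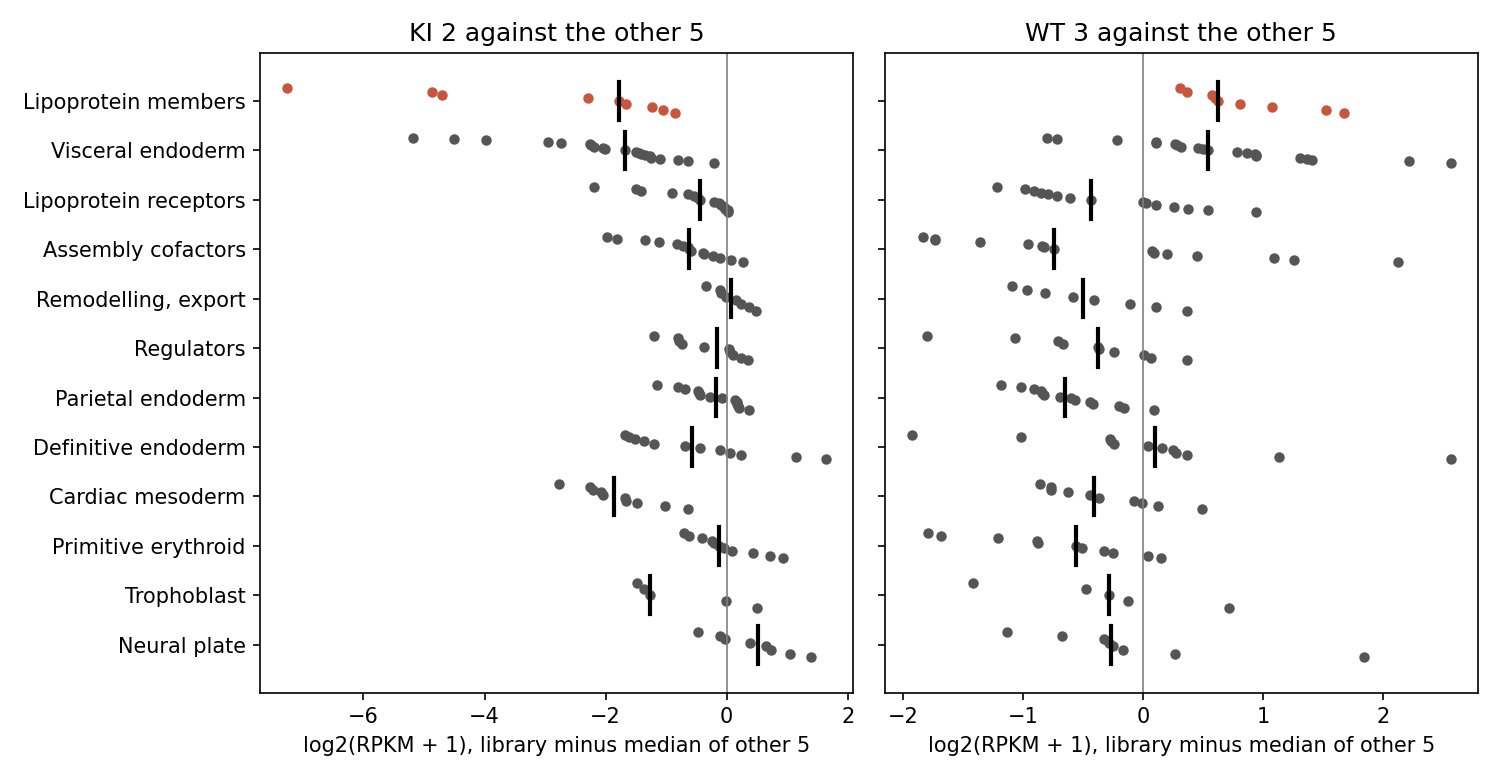
Gap of KI 2 (left) and WT 3 (right) from the median of the other 5 libraries in log2(RPKM + 1), one point per tested gene, by gene list, with the list median as a bar. The lipoprotein members (red) and visceral endoderm markers have medians of -1.77 and -1.68 in KI 2 and 0.63 and 0.55 in WT 3.

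The wider lipoprotein pathway shared this pattern only in part, and 0 of its genes passed the threshold in either direction. Of 15 tested assembly and lipid synthesis genes, 5 were lowest in KI 2, beside 20.6% of all tested genes. Their median log2 difference KI minus WT was 0.05. The median gap between KI 2 and the other 5 libraries was -0.62, beside -1.77 for the members and -0.08 for all tested genes. The general secretory members were the most abundant, with P4hb, the disulfide isomerase that is also a subunit of the Mttp complex, at 226 RPKM in KI 2 and 149 to 268 elsewhere. Sar1b, the COPII GTPase of particle export, was at 140 in KI 2 and 138 to 196 elsewhere, its close relative Sar1a at 88.3 and 68.2 to 117, and the cargo receptor Surf4 at 80.1 and 30.8 to 112. WT 3 gave the low end for P4hb, Sar1a and Surf4. Without it KI 2 was below the other 4 libraries, which were at least at 255, 108 and 99.6 RPKM. Pla2g12b, which is needed for lipoprotein secretion in mouse liver, was at 5.33, 4.74 and 12.7 RPKM in WT libraries 1 to 3 and at 4.19, 0.607 and 7.71 in KI libraries 1 to 3. Fabp1, a fatty acid carrier of liver and gut, was at 1.30 in KI 2, 24.1 in WT 3 and 4.71 to 5.85 in the other 4. The intestinal acyltransferase Mogat2 was lowest in WT 3 instead, at 24.2 RPKM, with 52.5 in KI 2 and 77.7 to 92.1 in the other 4. Pla2g12b, Fabp1 and Mogat2 were picked after their values were seen.

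Receptors of lipoproteins were mixed too. Of 15 tested receptor and adaptor genes 7 were lowest in KI 2, beside 20.6% of all tested genes, and the median log2 difference was 0.01. Their median gap between KI 2 and the other libraries was -0.45, beside -0.08 for all tested genes. The uptake complex of visceral endoderm was among the low ones, with the endocytic receptor Cubn at 0.0343 RPKM in KI 2 and 1.48 to 4.29 elsewhere and its anchor Amn at 0 and 1.76 to 4.19. The endocytic adaptor Dab2 was at 5.93 against 14.7 to 19.2, and Lrpap1, the chaperone of LDL receptor family members, at 17.5 against 33.2 to 37.6. Lrp2 was at 2.43 against 3.17 to 5.32, while Cd36, a fatty acid receptor, was at 4.02 in KI 2 and 4.14 to 6.65 elsewhere. Cubn and Amn were picked after their values were seen.

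Remodelling and export genes had a median log2 difference of 0.19 over 8 tested members, and 1 of them was lowest in KI 2. Their median gap between KI 2 and the other libraries was 0.08. Lpl, the lipase of the vessel wall, was at 2.72 RPKM in KI 2 and 1.42 to 2.76 elsewhere. The lysosomal lipase Lipa was at 6.21 in KI 2, 4.22 in WT 3 and 7.76 to 8.80 in WT 1, WT 2, KI 1 and KI 3. The cholesterol exporter Abcg1 was at 5.43 and 3.88 to 7.29, and Angptl4, an inhibitor of Lpl, at 3.21 and 0.979 to 4.16.

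Of 10 tested transcription factors known to drive liver or visceral endoderm genes, 4 were lowest in KI 2, and the median log2 difference was 0.0. Their median gap between KI 2 and the other libraries was -0.17. Nr2f2 was at 22.6 RPKM in KI 2 and 14.2 to 18.1 elsewhere, and Srebf2, the driver of sterol synthesis, at 4.90 and 1.82 to 5.2. Gata6 was at 0.913 and 1.37 to 1.58. Nr1h2 was at 4.46 in KI 2, 1.74 in WT 3 and 8.25 to 9.38 in WT 1, WT 2, KI 1 and KI 3. Hnf4a, the nuclear receptor required for apolipoprotein expression in mouse visceral endoderm, stayed under the expression minimum, at 0.435, 0.376 and 0.932 in WT libraries 1 to 3 and 0.324, 0.127 and 0.431 in KI libraries 1 to 3. Its highest value was in WT 3 and its lowest in KI 2.

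The other genes with an apolipoprotein name were mixed, with Apoc3, described above, at 0 in KI 2 and highest in WT 3. Apoo and Apool, which are subunits of the mitochondrial MICOS complex, were at 117 and 23.5 RPKM in KI 2 and at 76.4 to 102 and 19.8 to 34.9 elsewhere. Clu, a secreted chaperone, had 3.46 RPKM in KI 2 and 4.33 to 6.75 elsewhere. The paraoxonase gene Pon2 had 3.43 in KI 2, 2.81 in WT 3 and 3.94 to 5.62 in WT 1, WT 2, KI 1 and KI 3. Of 5 tested genes of this list 2 were lowest in KI 2, Clu and Apoc3, the median log2 difference was -0.24, and Apoh and Saa4 were at 0 in all libraries.

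The genes whose profile over the 6 libraries was most like the mean of the 9 tested members were ranked among 4379 genes by Pearson's r of log2(RPKM + 1), as a description over 6 points dominated by KI 2. Among the 10 closest were Fgg (r = 0.996), Rlim, Rbp4, Spp2, Gnai3, Rhox5, Ctsh, S100g and Tgds (r = 0.985). Fgg, which encodes fibrinogen gamma, had 0.245 RPKM in KI 2 and 7.05 to 14.0 elsewhere. S100g, a calcium-binding protein of absorptive epithelia, was at 0 and 24.3 to 77.7. Rlim, Gnai3 and Tgds were also lowest in KI 2 but over a narrow range, with Rlim at 28.2 RPKM in KI 2 and 39.2 to 45.9 elsewhere.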

How the data were processed

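Libraries were made with a SMARTER kit from RNA enriched with oligo(dT) beads, per the labels' protocols. The deposited table holds RPKM values for 21899 rows, as judged from the values, although the labels point to raw counts. The submitters' processing notes name GRCm39, and neither aligner nor counter is given in the sources used here. Of the rows for 20 repeated symbols, those with the higher mean were used. Multiplied by merged exon length in GENCODE M21 (GRCm38, used for lengths, overlaps and chromosome names), 97.9% to 98.0% of values above 0 and under 2000 reads became whole reads within 0.05 (higher values were rounded), which gave the depths and the Poisson intervals.

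KI and WT were compared with limma 3.58.1 (R 4.3.3). Values were taken as log2(RPKM + 1), the prior was trended and robust, no covariate was used, and genes had to reach 1 RPKM in 3 or more libraries. This scale understates changes of low genes. The threshold was a Benjamini-Hochberg adjusted p under 0.05, and the fit was tested on simulated data. The members and gene lists were chosen with earlier results of these data known, so no list was tested. All members were named, then the 4 most abundant genes of each lipoprotein list, up to 3 of the most abundant of each marker list, and the 10 genes most like the members, of which 1 is not reported here; others were chosen after their values were seen. Alternatives covered the pseudocount, filter, scaling, tool, replicate number, library weights, repeated symbols and left-out libraries.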

Additional observations from a re-analysis of the deposited data

How the results depend on the processing

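Over 16 alternatives no member was called, and no tested setting other than library weights (93 genes) and leaving out both WT 3 and KI 2 (41 genes) called any gene. Without WT 3 and KI 2 the log2 differences turned positive for Apoa1 (0.59), Apoa2 (0.35), Apob (0.33), Apoc1 (0.34), Apoe (0.39), Apom (0.41) and Mttp (0.29), with a member median of 0.39. With library weights, whose estimation stopped before convergence and which rest mostly on KI 1 (7.75) and WT 2 (3.41), they turned for Apoa1 (0.13), Apob (0.16), Apoe (0.16), Apom (0.08) and Mttp (0.11). Apoa4 turned negative with a pseudocount of 0.1 (-0.62), median scaling (-0.06) and limma-voom on recovered reads (-1.0). Leaving out 1 library at a time gave -3.7 to 0.08 for Apoa1, -0.4 to 0.64 for Apoa4, -0.82 to 0.08 for Apob, -0.88 to 0.07 for Apoc1, -1.02 to 0.29 for Apoe, -0.43 to 0.16 for Mttp and -0.0 to 0.82 for Soat2. It was the absence of KI 2 that gave the positive end for Apoa1, Apob, Apoc1, Apoe and Mttp. The largest gaps rest on 2 to 10 reads in KI 2, and 1 library per pattern allows no test of KI 2 or WT 3.

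The replicate numbers did not pair the samples: deviations from the group means correlated at 0.124, -0.0507 and 0.0054 for numbers 1, 2 and 3, and of the 6 libraries only WT 1 correlated best with its own number. With the replicate block 0 genes and 0 members were called, the median over the members was -0.52, and 139 genes had an unadjusted p under 0.05.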

Other observations

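The visceral endoderm markers did not all share the high lipoprotein level of WT 3. Spink1, a trypsin inhibitor, was at 142 RPKM in WT 3, 6.54 times the mean of WT 1 and WT 2, and Ttr stood at 4.72 times that mean. The fatty acid carrier Fabp1, from the assembly and lipid synthesis list and not one of these markers, stood at 4.55 times it. Amn, the anchor of the cubilin complex, and Trf, the iron carrier transferrin, were at 0.455 and 0.547 times it instead, although both were lowest in KI 2. Afp, the fetal plasma carrier, was nearly level outside KI 2, at 39.9 to 51.5 RPKM, and at 0.973 in KI 2. These genes were picked after their values were seen.

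Among other lipid genes, Dgat2 and Scarb1, picked after their values were seen, differed from the members in being lowest in WT 3. A low WT 3 value was common. On the log2(RPKM + 1) scale the median gap of WT 3 was -0.74 for assembly genes, -0.43 for receptor genes and -0.31 for all tested genes. Dgat2, a triglyceride synthase, was at 1.84 RPKM in WT 3, where Apob and Apom were highest, and at 4.75 to 10.9 in the other 5. Scarb1, a receptor for high-density particles, was at 0.39 in WT 3 and 1.69 to 2.71 elsewhere. Pdzk1, the adaptor that holds Scarb1 in liver, had the same order of libraries as Apoe and Mttp, at 0 in KI 2 and 2.07 to 4.03 elsewhere.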
